A study of Mus musculus with 15 samples.

Results

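Transcripts of 8 genes that break down proline or carry out transamination were followed in 15 mouse liver samples. The genes were Prodh, Prodh2, Aldh4a1, Gpt, Gpt2, Got1, Got2 and Oat, taken by symbol from a table of 15302 genes, and all 8 were among the 12274 genes that passed a filter on low counts. The mice were wild type, and were put at 8 weeks of age on a diet that models MASH, the inflamed form of metabolic fatty liver disease, at about 29 °C. The GDF15 group (5 samples) was injected under the skin each day with the recombinant hormone GDF15, which reduces appetite through a brainstem receptor, at 1 nmol/kg. In the PairFed group (5 samples), food was held to the intake of GDF15-treated mice on the preceding day. The Vehicle group (5 samples) was the control. All groups shared the diet, the housing temperature and single housing. The sources used here do not give the strain, the sex, the length of treatment or whether PairFed mice were injected. The comparison of GDF15 with PairFed asks what differed at matched food intake.

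Proline is opened by proline dehydrogenase in mitochondria, and a second enzyme oxidises the product to glutamate. Ornithine aminotransferase feeds the same intermediate from ornithine. The alanine and aspartate transaminases pass amino groups between glutamate and pyruvate or oxaloacetate, which links amino acid breakdown in hepatocytes to glucose production and to the urea cycle. The alanine and aspartate transaminase activities are also known as blood tests for liver injury.

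Total counts were 8551557 to 10914914 in GDF15 libraries, 10133289 to 12933324 in PairFed libraries and 9228127 to 12994187 in Vehicle libraries, and the 5 deeper libraries, of 12137462 counts or more, were PairFed libraries 2 to 5 and Vehicle library 4. Hepatocyte marker transcripts summed to 104000 to 131700 CPM (counts scaled to the size of the library) in GDF15 livers, 99280 to 123000 CPM in PairFed livers and 92750 to 112700 CPM in Vehicle livers, and 10 of the 11 tested markers had a positive fold change in GDF15 against Vehicle, with a median log2 fold change of 0.23; 1 of them, Apoc3, rose. The part of this shift in the values of the 8 genes was not tested. The mean log2 CPM of 18 immediate-early genes, whose transcription answers fast to handling, was 3.74 to 5.04 in GDF15, 3.97 to 4.68 in PairFed and 3.41 to 4.21 in Vehicle livers. Of these 18, 15 had a positive log2 fold change in GDF15 against Vehicle, with a median of 0.96. None passed in edgeR, DESeq2 called 6, and 13 had an unadjusted edgeR p below 0.05, against 16.7% of all tested genes. That mean, used below as the immediate-early score, thus tended to differ between groups. A fit that holds it can also take out group differences, and cannot tell handling from treatment. GDF15 library 1 stood apart from the rest, at 41.1 on the first principal component (24.9% of the variance) with the next library at 20.1. Among the GDF15 livers it had the highest hepatocyte marker sum and the lowest sums of Kupffer, recruited macrophage, endothelial and stellate markers, at 154, 303, 55.6 and 229.5 CPM. In bulk liver, a change in the number of cells that express a gene and a change in its RNA per cell cannot be told apart.

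In GDF15 against Vehicle livers, 3 of the 8 genes rose and none fell. They were Got1, Prodh and Gpt2, at 3.08-fold, 1.82-fold and 1.22-fold. Over all tested genes, 2.9% passed in this comparison, 2.02% rising and 0.88% falling, by edgeR's quasi-likelihood test with a Benjamini-Hochberg adjusted p below 0.05. The log2 fold change was positive for all 8 genes, with a median of 0.27, against -0.005 over all tested genes. In 3 of the 8, Prodh, Got1 and Got2, every GDF15 library lay above every Vehicle library, a separation that 3.99% of all tested genes showed in either direction and 2.48% showed upwards. Without GDF15 library 1, the log2 fold changes of Got1, Prodh and Gpt2 were 1.501, 0.87 and 0.29, with adjusted p of 0.08, 0.00585 and 0.0733.

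In PairFed against Vehicle livers, none of the 8 passed the same edgeR test, which 0.285% of all tested genes did. At an unadjusted p below 0.05 there were 4 of the 8, Prodh, Aldh4a1, Gpt2 and Oat, against 16.9% of all tested genes. At that level GDF15 against Vehicle had 7 of the 8, against 16.7% of all tested genes. Of the 8, DESeq2 called 1 in PairFed against Vehicle, Gpt2, and limma-voom called 0 there. Over all genes, DESeq2 called 339 in that comparison and edgeR 35. The PairFed and Vehicle ranges did not overlap for 4 of the 8, Aldh4a1, Gpt2, Got2 and Oat, with PairFed higher in each, against 3.92% of all tested genes in either direction and 2.21% with PairFed higher.

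In GDF15 against PairFed livers, 1 of the 8 rose, Prodh at 1.45-fold, against 0.562% of all tested genes that rose and 0.782% that passed in either direction. It was also the gene of the 8 whose ranges did not overlap in this comparison, against 2.86% of all tested genes in either direction and 1.31% with GDF15 higher. The comparisons with Vehicle share the Vehicle libraries, so their values are given side by side and are not independent of each other.

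**Figure D1:**
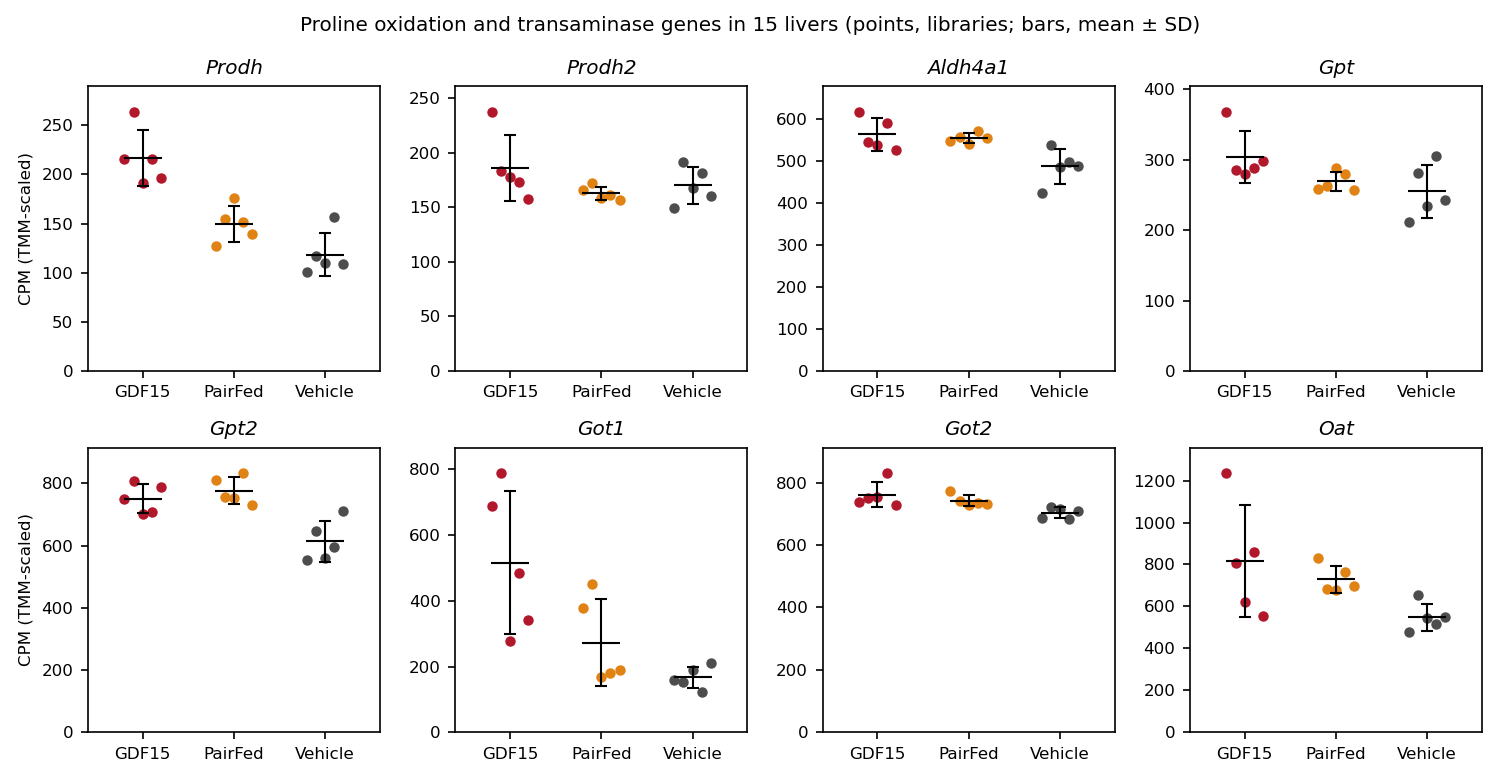
TMM-scaled CPM (vertical axes, from 0) of the 8 genes in each of the 15 livers, by group, with points for libraries and bars for the mean ± SD of 5. The 5 GDF15 livers sit above all others for Prodh, at 191 to 264 CPM, and spread widely for Got1, at 278 to 786 CPM.

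**Figure D2:**
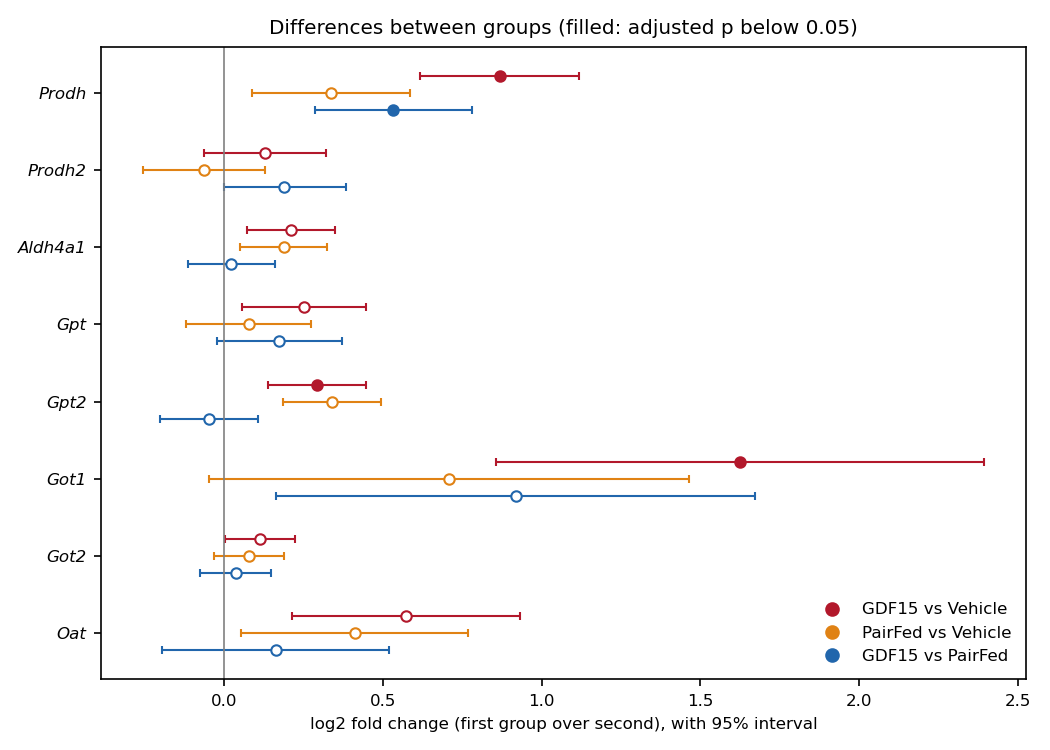
Log2 fold changes (horizontal axis) of the 8 genes in the 3 comparisons, with 95% intervals and filled points where the adjusted p is below 0.05. For Gpt2 the point of GDF15 against PairFed lies at -0.05 with an interval from -0.20 to 0.11, while both comparisons with Vehicle lie near 0.3.

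Prodh encodes proline dehydrogenase, the first and committed enzyme of proline oxidation. It lies on the minus strand at chr16:18060357-18090203 of GRCm38. Its 5 GDF15 libraries had 215, 264, 191, 216 and 197 CPM, its 5 PairFed libraries had 127, 155, 176, 152 and 139 CPM, and its 5 Vehicle libraries had 100.2, 117, 110.2, 156 and 109 CPM. Every GDF15 liver was above every liver of the other groups, while PairFed and Vehicle overlapped through Vehicle library 4. The means were 217 ± 28.6 CPM in GDF15, 150 ± 18.4 CPM in PairFed and 119 ± 21.9 CPM in Vehicle (SD, n = 5 each). On the log2 scale Prodh was 0.87 ± 0.12 (SE) higher in GDF15 than in Vehicle, with an adjusted p of 0.00122. It was 0.53 ± 0.12 higher in GDF15 than in PairFed, with an adjusted p of 0.0468. The PairFed difference from Vehicle was 0.34 ± 0.12, with an adjusted p of 0.169.

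The Prodh rise over Vehicle passed the test with each of the 15 libraries left out in turn. The rise over PairFed passed in 5 of those 15 fits, with log2 fold changes of 0.45 to 0.60. It missed the threshold without Vehicle library 2 or 5, GDF15 library 1, 2, 4 or 5, or PairFed library 1, 2, 4 or 5, at an adjusted p of at most 0.131. With a term for the deeper libraries, it was 0.86 ± 0.12 higher in GDF15 than in PairFed, with an adjusted p of 0.00843, and the PairFed difference from Vehicle was 0.10. The deeper libraries were 4 of PairFed and 1 of Vehicle, with none of GDF15. In every fit that holds it, the term rests on how Vehicle library 4 and PairFed library 1 differ from the rest of their groups. Such a fit cannot separate depth from group. Within the shallower libraries, Prodh averaged 217 CPM in 5 GDF15 livers, against 126.8 CPM in the lone PairFed liver and 109 CPM in 4 Vehicle livers. With the immediate-early score added to the fit, the log2 fold changes were 0.81 over Vehicle and 0.50 over PairFed, with adjusted p of 0.0898 and 0.143.

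Aldh4a1, at chr4:139622866-139649690 on the plus strand, encodes the dehydrogenase that completes the conversion to glutamate. It had 526 to 618 CPM in GDF15 libraries, 542 to 573 CPM in PairFed libraries and 425 to 539.7 CPM in Vehicle libraries. The PairFed livers were all above the Vehicle livers, and the GDF15 livers overlapped both. The log2 fold change was 0.21 ± 0.07 for GDF15 against Vehicle, with an adjusted p of 0.0928 in edgeR and 0.0266 in DESeq2, and 0.19 ± 0.07 for PairFed against Vehicle, with an adjusted p of 0.165. Between GDF15 and PairFed it was 0.02, with a 95% interval from -0.12 to 0.16. Aldh4a1 shares 1595 exon bases with the annotated gene Gm21969 on the same strand, which has no row of its own, so reads of both could stand in this row.

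Prodh2, at chr7:30493622-30513402 on the plus strand, encodes the related mitochondrial enzyme that acts on hydroxyproline, which is released from collagen. It had 158 to 238 CPM in GDF15, 157 to 172 CPM in PairFed and 149 to 192 CPM in Vehicle livers, and the groups overlapped throughout. Its log2 fold changes were 0.13 ± 0.09, -0.06 ± 0.09 and 0.19 ± 0.09 for GDF15 against Vehicle, PairFed against Vehicle and GDF15 against PairFed, with adjusted p of 0.521, 0.769 and 0.38. Without GDF15 library 1, its highest, the GDF15 differences were 0.03 from Vehicle and 0.09 from PairFed.

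Counts of Prodh were set against those of its partner enzymes in the same library, which takes out a scaling factor shared by the genes of a library. The ratio of Prodh to Aldh4a1 was 0.348, 0.483, 0.355, 0.364 and 0.374 in the 5 GDF15 livers, 0.231, 0.278, 0.324, 0.264 and 0.250 in the 5 PairFed livers and 0.236, 0.216, 0.227, 0.313 and 0.223 in the 5 Vehicle livers. Every GDF15 ratio exceeded every PairFed and Vehicle ratio. Outside the GDF15 group, the ratio was 0.250 to 0.324 in the deeper libraries and 0.216 to 0.236 in the shallower ones. It thus still went with depth there, and the part of depth in the group differences was not tested. The mean log2 ratio was 0.67 higher in GDF15 than in Vehicle and 0.51 higher in GDF15 than in PairFed, each with an adjusted p of 0.0238 by exact two-sided permutation test over the 12 ratio comparisons. The smallest p that 5 libraries against 5 allow is 0.00794 before adjustment. PairFed exceeded Vehicle by 0.15, with an exact adjusted p of 0.286; this was 0.25 without Vehicle library 4 and 0.09 without PairFed library 3.

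The ratio of Prodh2 to Prodh averaged 0.857 in GDF15, 1.1 in PairFed and 1.45 in Vehicle livers. Its log2 mean was 0.76 lower in GDF15 than in Vehicle (difference -0.76), without overlap and with an exact permutation adjusted p of 0.0238. For PairFed against Vehicle the difference was -0.40 with an exact adjusted p of 0.0381, and that call was lost in 8 fits that left out a library (Vehicle 1, 2, 3 or 5, or PairFed 2, 3, 4 or 5). For GDF15 against PairFed it was -0.36 with an exact adjusted p of 0.0833. Outside the GDF15 group, this ratio was 0.901 to 1.16 in the deeper libraries and 1.31 to 1.64 in the shallower ones, without overlap. It thus also went with depth there, and the part of depth in the group differences was not tested.

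**Figure D3:**
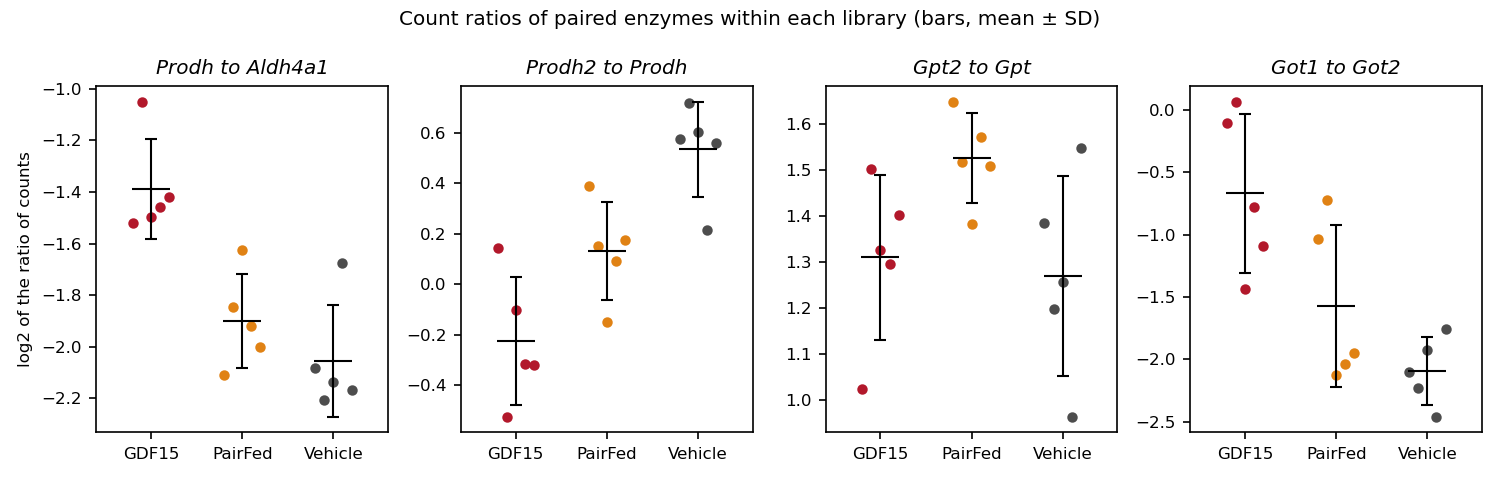
Log2 ratios of counts (vertical axes, not from 0) of enzyme pairs within each of the 15 livers, with points for libraries and bars for mean ± SD of 5. The GDF15 livers lie above the others for Prodh to Aldh4a1, while Gpt2 to Gpt overlaps between all groups.

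Gpt, at chr15:76695716-76699686 on the plus strand, encodes the cytosolic alanine transaminase. It had 279.5 to 368 CPM in GDF15, 257 to 288 CPM in PairFed and 212 to 305 CPM in Vehicle livers. The groups overlapped, and the log2 fold change of GDF15 against Vehicle was 0.25 ± 0.09, with an adjusted p of 0.166. Without GDF15 library 1, the highest, it was 0.17 against Vehicle and 0.095 against PairFed, where it was 0.17 with all libraries.

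Gpt2, at chr8:85492576-85527560 on the plus strand, encodes the mitochondrial alanine transaminase. It had 749, 809, 701, 708 and 788 CPM in the GDF15 livers, 812, 755, 753, 832 and 730.3 CPM in the PairFed livers and 554, 645, 561, 595 and 712 CPM in the Vehicle livers. The PairFed livers were all above the Vehicle livers, and GDF15 overlapped Vehicle only through Vehicle library 5. Gpt2 rose by 0.29 ± 0.07 on the log2 scale in GDF15 against Vehicle, with an adjusted p of 0.0398, while PairFed was 0.34 ± 0.07 above Vehicle, with an adjusted p of 0.0578. The GDF15 rise passed in 8 of 15 fits without a library. It missed without Vehicle library 1, 3 or 4 or GDF15 library 1, 2, 4 or 5, at an adjusted p of at most 0.131. It also missed with upper-quartile scaling, with the term for the deeper libraries, with only the compared groups in the fit and among the shallower libraries alone, at adjusted p of 0.0562, 0.0568, 0.0921 and 0.149. With the immediate-early score added to the fit it was 0.16, with an adjusted p of 0.81.

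The ratio of Gpt2 to Gpt averaged 2.48 in GDF15, 2.88 in PairFed and 2.41 in Vehicle livers. None of its 3 comparisons passed the adjusted threshold by exact permutation test, with adjusted p of 0.746 for GDF15 against Vehicle, 0.0833 for PairFed against Vehicle and 0.0794 for GDF15 against PairFed.

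Got1, at chr19:43499752-43524605 on the minus strand, encodes the cytosolic aspartate transaminase, which supplies aspartate or oxaloacetate outside the mitochondrion. It had 687, 786, 278, 485 and 342 CPM in the GDF15 livers, 378, 450.5, 167, 179 and 189.5 CPM in the PairFed livers and 160.4, 154, 188, 124 and 209.5 CPM in the Vehicle livers. All GDF15 livers were above all Vehicle livers, and PairFed libraries 1 and 2 lay among the GDF15 livers while the other PairFed libraries lay among the Vehicle livers. The means were 516 ± 218 CPM in GDF15, 273 ± 132 CPM in PairFed and 167 ± 32.8 CPM in Vehicle (SD, n = 5 each).

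Got1 was 1.62 ± 0.36 (log2) higher in GDF15 than in Vehicle, with an adjusted p of 0.03. PairFed was 0.71 ± 0.35 above Vehicle and GDF15 was 0.92 ± 0.35 above PairFed, with adjusted p of 0.319 and 0.274. The rise over Vehicle passed in 8 of 15 fits that left out a library. It missed without Vehicle library 1, 2, 3 or 4 or GDF15 library 1, 2 or 4, at an adjusted p of at most 0.0863 and log2 fold changes no lower than 1.42. With the immediate-early score added to the fit, the difference was 1.04 ± 0.42, with an adjusted p of 0.687. Among the shallower libraries alone it was 1.53, with an adjusted p of 0.072. With the term for the deeper libraries, PairFed was 1.04 above Vehicle and GDF15 was 0.49 above PairFed, with adjusted p of 0.405 and 0.815.

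Got2, at chr8:95864134-95888547 on the minus strand, encodes the mitochondrial aspartate transaminase. It had 729.5 to 829 CPM in GDF15, 728 to 773 CPM in PairFed and 683 to 723 CPM in Vehicle livers. Both other groups lay wholly above Vehicle, by log2 fold changes of 0.11 ± 0.05 for GDF15 and 0.08 ± 0.05 for PairFed, and neither passed, with adjusted p of 0.285 and 0.471. The interval of GDF15 against Vehicle ran from 0.003 to 0.224. Got2 shares 379 exon bases with the annotated gene Gm45760 on the opposite strand, which has no row of its own. The strand setting of the counting is not given, so reads of Gm45760 could stand in the Got2 row.

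The ratio of Got1 to Got2 was 0.929, 1.05, 0.369, 0.584 and 0.469 in the GDF15 livers, 0.489, 0.607, 0.229, 0.244 and 0.259 in the PairFed livers and 0.233, 0.213, 0.263, 0.182 and 0.296 in the Vehicle livers. GDF15 and Vehicle did not overlap, and in GDF15 library 2 the cytosolic enzyme had more counts than the mitochondrial one. The mean log2 ratio was 1.43 higher in GDF15 than in Vehicle, with an adjusted p of 0.0238 by exact permutation test. It was 0.90 higher in GDF15 than in PairFed and 0.52 higher in PairFed than in Vehicle, with exact adjusted p of 0.0952 and 0.2. The PairFed difference from Vehicle was 0.31 without PairFed library 2, with an exact adjusted p of 0.381.

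Oat, at chr7:132557478-132576398 on the minus strand, encodes ornithine aminotransferase, which is known in mouse liver from the pericentral zone. It had 1234, 809, 623, 859.6 and 555 CPM in the GDF15 livers, 829, 681, 677, 763 and 697 CPM in the PairFed livers and 479, 653.5, 543, 517 and 550.5 CPM in the Vehicle livers. PairFed lay wholly above Vehicle, while GDF15 libraries 3 and 5 lay within the Vehicle range. The log2 fold change was 0.57 ± 0.17 for GDF15 and 0.41 ± 0.17 for PairFed against Vehicle, with adjusted p of 0.0851 and 0.23 in edgeR. DESeq2 called the GDF15 difference, with an adjusted p of 0.0162. In edgeR it passed without GDF15 library 3 or 5, at 0.66 and 0.68 with adjusted p of 0.0406 and 0.028. Without GDF15 library 1 it was 0.38, with an adjusted p of 0.143. With the immediate-early score added to the fit, the differences were 0.25 for GDF15 and 0.25 for PairFed, with adjusted p of 0.949 and 0.524. Between GDF15 and PairFed the difference was 0.16, with a 95% interval from -0.20 to 0.52, and -0.04 without GDF15 library 1.

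Of the 8 genes, the 3 transaminase genes with the largest fold changes in GDF15 against Vehicle were Got1, Oat and Gpt2. The stretches before their starts are shown to set the letters before Got1, the largest of the 8, beside those before Oat and Gpt2. They are the 250 bases before the RefSeq start (GRCm38.p6), written 5′ to 3′ on the gene's strand, at chr19:43524606-43524855 (minus) for Got1, chr7:132576399-132576648 (minus) for Oat and chr8:85492326-85492575 (plus) for Gpt2. Capitals mark matches, on either strand, to any of 8 searched motifs.
Got1: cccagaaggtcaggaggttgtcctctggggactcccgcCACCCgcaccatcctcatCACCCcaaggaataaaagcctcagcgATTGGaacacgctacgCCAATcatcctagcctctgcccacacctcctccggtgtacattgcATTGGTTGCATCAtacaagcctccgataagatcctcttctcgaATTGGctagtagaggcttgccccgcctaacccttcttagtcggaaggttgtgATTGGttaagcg
Oat: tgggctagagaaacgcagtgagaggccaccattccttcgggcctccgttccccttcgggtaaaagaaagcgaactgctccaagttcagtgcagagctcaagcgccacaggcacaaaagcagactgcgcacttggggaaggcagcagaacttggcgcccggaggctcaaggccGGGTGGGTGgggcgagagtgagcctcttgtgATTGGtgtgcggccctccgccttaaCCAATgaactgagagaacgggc
Gpt2: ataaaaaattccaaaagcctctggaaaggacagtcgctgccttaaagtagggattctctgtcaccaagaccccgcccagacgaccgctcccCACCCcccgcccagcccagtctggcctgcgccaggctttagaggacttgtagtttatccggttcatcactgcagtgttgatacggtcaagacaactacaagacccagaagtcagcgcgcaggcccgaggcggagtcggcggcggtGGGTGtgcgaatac

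The Got1 window held 5 matches to CCAAT, the box bound by NF-Y, a count that 0.213% of 32851 mouse promoter windows reach, while 33.8% hold at least 1. Oat held 2, which 10.1% reach, and Gpt2 held none. Of the windows not shown, Aldh4a1 held 3, which 2.79% reach, Prodh2 held 1, and Prodh and Got2 held 0. CCAAT was 1 of 8 motifs searched in 7 windows, and the largest count was singled out. A link of these counts to the fold changes was not tested. Got1 also held 1 match to TGATGNAAN, the core of the amino acid response element, at -103 to -95 from the start and on the reverse strand, sharing 1 base with a CCAAT match; 3.44% of windows hold that core. CACCC, a motif of Krüppel-like factors, occurred in all 3 windows shown and in 52.0% of all windows. No match to AGAACA, the glucocorticoid receptor half-site (16.1% of windows), to TGACG, the cyclic AMP response half-site (17.8%), or to its full form TGACGTCA (1.55%) lay in any of the 7 windows at hand. TTGCNNAA, a C/EBP motif (9.56% of windows), matched in Prodh2 and TATAAA (12.4%) in Got2. A match is a run of letters and does not show a bound site, and Gpt had no entry in the promoter table.

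Levels can be compared between the genes only per length, here as CPM per kilobase of the longest coding transcript in the GENCODE M21 annotation. In GDF15 livers the order was Oat at 379 ± 123, Got2 at 301 ± 15.7, Got1 at 250.5 ± 106, Gpt2 at 206 ± 13, Gpt at 169.6 ± 20.4, Aldh4a1 at 167 ± 11.5, Prodh2 at 100.4 ± 16.4 and Prodh at 90.7 ± 12 (SD, n = 5). Neighbours in that order overlapped over the libraries except Aldh4a1 and Prodh2. In PairFed livers Oat led at 339 ± 30.4, Got1 stood sixth at 133 ± 64.1 and Prodh was lowest at 62.7 ± 7.69. In Vehicle livers Got2 led at 278 ± 6.9 and overlapped Oat at 255 ± 30.1, Got1 stood seventh at 81.2 ± 16, and Prodh was lowest at 49.7 ± 9.2.

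Genes around these enzymes were taken as lists by known role. Of 3 tested genes of proline synthesis, 0 passed in edgeR in GDF15 against Vehicle, DESeq2 called 1 and limma-voom 0. An unadjusted edgeR p below 0.05 was found for 2, against 16.7% of all tested genes. Aldh18a1, which makes the proline precursor from glutamate, averaged 2.74 ± 1.12 CPM in GDF15 and 5.82 ± 2.09 CPM in Vehicle livers. Its log2 fold change was -1.06, with an adjusted p of 0.0655. Of 10 genes that handle ornithine or hydroxyproline, 3 rose in GDF15 against Vehicle and none fell, with a median log2 fold change of 0.12. These were Arg1, the arginase of the urea cycle, Otc, which makes citrulline, and Slc25a15, the mitochondrial ornithine carrier. Arg1 averaged 1188 ± 156 CPM in GDF15 and 791 ± 46.9 CPM in Vehicle livers, with an adjusted p of 0.00228. Slc25a15 also rose in GDF15 against PairFed, by 0.48 ± 0.11 with an adjusted p of 0.0479.

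Of 13 glutamate and glutamine genes, 3 rose in GDF15 against Vehicle, none fell and the median log2 fold change was 0.30. Gls2, the liver glutaminase, averaged 317 ± 56.9 CPM in GDF15 and 189 ± 22.1 CPM in Vehicle livers, with an adjusted p of 0.00167. Slc38a4, an amino acid transporter, rose by 0.62 ± 0.10, and Slc25a22, a mitochondrial glutamate carrier, rose by 0.92 ± 0.16. Glul, which makes glutamine in pericentral hepatocytes, averaged 2176 ± 359 CPM in GDF15 and 1768 ± 219 CPM in Vehicle livers, with an adjusted p of 0.135. Of 12 other genes, transaminases and the related enzymes Alas1, Etnppl and Phykpl, 1 rose, with a median of 0.14. It was Tat, the tyrosine transaminase long used as a marker of glucocorticoid action, averaging 2817 ± 1020 CPM in GDF15 livers and 889 ± 239 CPM in Vehicle livers, with an adjusted p of 0.0167.

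Of 15 genes of the malate-aspartate shuttle and pyruvate use, 0 passed in edgeR in GDF15 against Vehicle, DESeq2 called 1 and limma-voom 0. An unadjusted edgeR p below 0.05 was found for 3 of the 15, against 16.7% of all tested genes. Pck1, the gluconeogenic enzyme that starts from oxaloacetate, averaged 4204 ± 1390 CPM in GDF15 and 1698 ± 765 CPM in Vehicle livers, with an adjusted p of 0.0539. In PairFed against Vehicle livers, 0 genes of these 5 lists passed in edgeR. In the order given, 1, 5, 7, 4 and 4 had an unadjusted edgeR p below 0.05, of 3, 10, 13, 12 and 15. The share over all tested genes was 16.9%. DESeq2 called 0, 1, 3, 1 and 0 and limma-voom called none. Of the regulators, ATF4 targets and glucocorticoid-induced genes described next, 0 passed in edgeR in PairFed against Vehicle. Of these 16, 10 and 12 genes, 5, 3 and 5 had an unadjusted edgeR p below 0.05, against 16.9% of all tested genes. DESeq2 called 2 of each and limma-voom called 0, 1 and 0.

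Of 16 regulators of amino acid breakdown, 5 rose in GDF15 against Vehicle and none fell, with a median of 0.22. Klf15, known to drive proline and alanine catabolic genes, averaged 236 ± 46.5 CPM in GDF15 and 136 ± 29.1 CPM in Vehicle livers, with an adjusted p of 0.0125. The others were Ppargc1a, Foxo1, Foxo3 and Cebpb, with log2 fold changes of 1.02, 0.89, 0.67 and 1.26. Ppargc1a, the coactivator of gluconeogenesis, also rose in GDF15 against PairFed, by 0.87 ± 0.17 with an adjusted p of 0.0253. Of 10 tested targets of the amino acid stress factor ATF4, Cth rose and Mthfd2 fell in GDF15 against Vehicle, with a median of 0.04. The targets Asns, Phgdh, Slc7a11 and Aldh1l2 did not pass the filter on low counts. Mthfd2 was low, averaging 1.98 CPM in GDF15, 1.89 CPM in PairFed and 3.99 CPM in Vehicle livers. Of 12 genes known to be induced by glucocorticoids, Tat included, 9 rose in GDF15 against Vehicle, with a median of 1.45, and 5 rose in GDF15 against PairFed, with a median of 0.99. The study's title names glucocorticoid signalling and the list was chosen with earlier results known, so it is not independent evidence of direction.

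**Figure D4:**
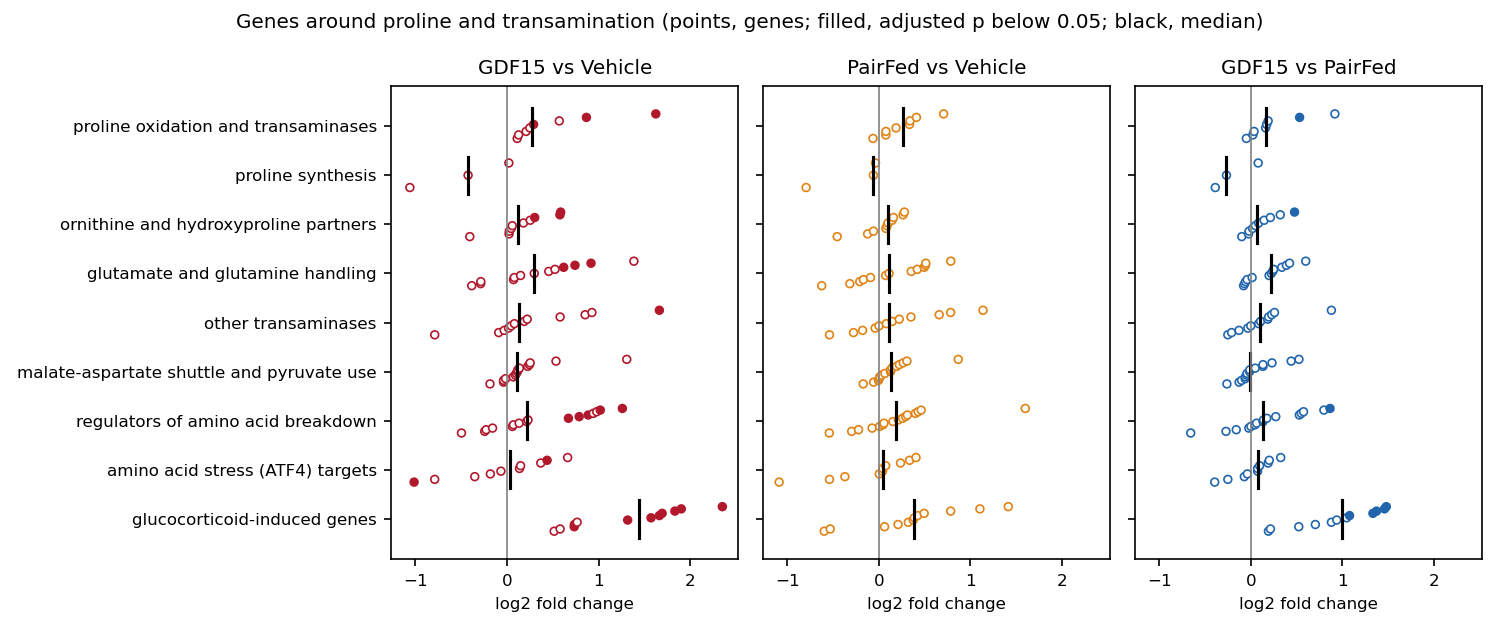
Log2 fold changes (horizontal axes) of the 8 genes and of 8 lists of related genes in the 3 comparisons, with points for genes, filled where the adjusted p is below 0.05, and black bars for medians. Points called in PairFed against Vehicle are absent from all rows shown, and glucocorticoid-induced genes reach a median of 1.45 in GDF15 against Vehicle.

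Some zonation markers also passed. Of 12 periportal markers, 5 rose in GDF15 against Vehicle, Sds, Hal, Gls2, Ass1 and Arg1, with a median of 0.46. The log2 fold change was positive for 10 of the 12 and negative for Cdh1 and Hsd17b13, at -0.37 and -0.05. Sds, Gls2 and Arg1 also belong to lists above. The mean log2 CPM of the 12 was 8.44 to 8.81 in GDF15, 8.28 to 8.60 in PairFed and 8.00 to 8.32 in Vehicle livers. Of 14 pericentral markers, 1 rose, Cyp27a1, with a median of 0.22. In PairFed against Vehicle, 0 of the periportal markers passed in edgeR, DESeq2 or limma-voom. At an unadjusted edgeR p below 0.05 there were 7 of the 12, against 16.9% of all tested genes. Of the pericentral markers, 1 rose there, Rnf43. In GDF15 against PairFed, the periportal markers Sds and Ass1 rose, by log2 fold changes of 1.08 and 0.50 with adjusted p of 0.00977 and 0.0443. The pericentral marker Cyp27a1 rose by 0.54 with an adjusted p of 0.0114, and Rnf43 fell. Among lists for other cells, Cd8a, 1 of 5 tested lymphocyte genes, fell in GDF15 against Vehicle. So did Ly6c2, 1 of 9 recruited macrophage and monocyte genes. Both were low, with Cd8a and Ly6c2 averaging 0.41 and 0.59 CPM in GDF15 livers and 1.71 and 1.565 CPM in Vehicle livers. Of 6 bile duct genes, 1 (Sox9) fell in PairFed against Vehicle. None of the 8 Kupffer, 8 endothelial, 9 stellate or 3 blood and other-tissue genes passed in edgeR in any comparison. DESeq2 and limma-voom called none of them either. At an unadjusted edgeR p below 0.05 there were 2, 0, 1 and 1 of them in GDF15 against Vehicle. There were none in PairFed against Vehicle and 0, 1, 0 and 0 in GDF15 against PairFed. Over all tested genes, the shares in these comparisons were 16.7%, 16.9% and 13.3%. In GDF15 against Vehicle the log2 fold change was positive for 0 of 9 stellate, 0 of 9 recruited macrophage and monocyte, 0 of 5 lymphocyte, 6 of 8 Kupffer and 4 of 8 endothelial genes, with medians of -0.54, -0.40, -1.36, 0.21 and -0.02. The part of these shifts in the 8 genes' values was not tested.

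The genes whose log2 CPM ran most closely with each of the 8 over the 15 libraries were sought among the 12273 others. These correlations are descriptions that share libraries, depth and group differences, and the closest of many genes is high by selection. For Got1 they were Asl, a urea cycle enzyme, at Pearson r = 0.98 (Spearman 0.95), Nnmt at 0.96 (0.94) and Slc25a15 at 0.96 (0.89). After subtraction of group means, r was 0.96, 0.93 and 0.94, and without the 2 libraries farthest from the median of the other gene it was 0.96, 0.97 and 0.92. Asl had 609, 638, 352, 480.4 and 443 CPM in the GDF15 livers, 403, 477, 323, 321 and 338 CPM in the PairFed livers and 269, 271, 297, 261 and 315 CPM in the Vehicle livers. The GDF15 and PairFed livers that were high for Got1 were the ones that were high for Asl. For Prodh the closest were Nrbp2 at r = 0.91 (Spearman 0.92), Zfp385b at 0.91 (0.88) and Trak1 at 0.91 (0.90), and after subtraction of group means these were 0.65, 0.55 and 0.57.

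Among the 8 genes themselves, Aldh4a1 and Oat had the highest r over all libraries, at 0.87 (Spearman 0.93), with 0.75 within groups. Within groups the highest was Prodh2 and Oat, at 0.81, with 0.66 over all libraries (Spearman 0.35). GDF15 library 1 had the highest CPM of both genes. Prodh and Got1, both higher in GDF15, had r = 0.70 over all libraries and -0.005 within groups.

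**Figure D5:**
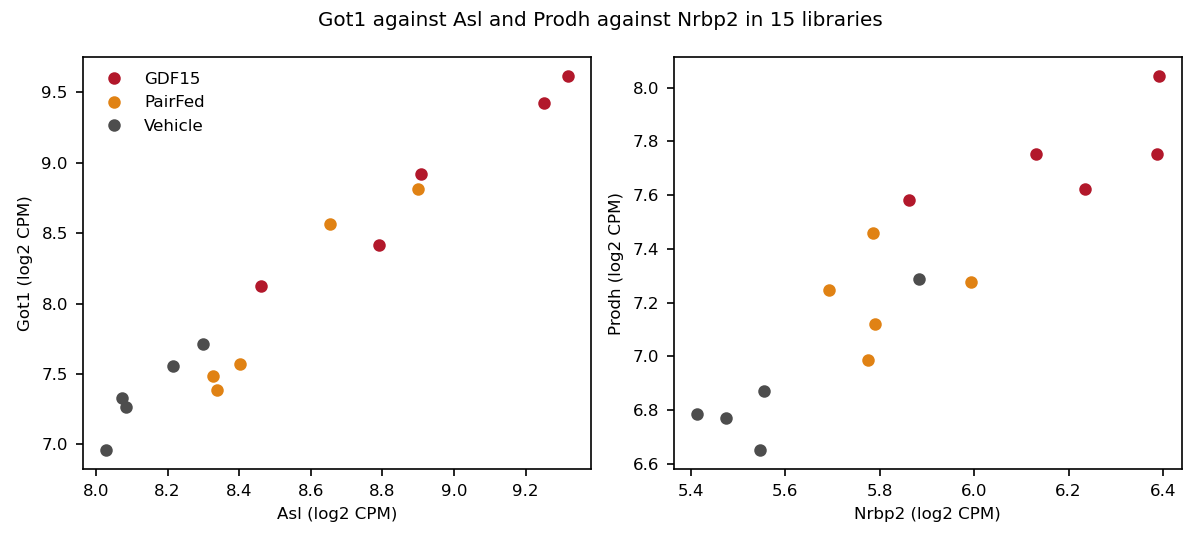
Log2 CPM of Got1 against Asl and of Prodh against Nrbp2 in the 15 livers, coloured by group. Got1 and Asl lie along a line within groups as well as between them (r = 0.96 within), and Prodh and Nrbp2 less so (r = 0.65 within).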

How the data were processed

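RNA of 15 liver samples was sequenced from directional libraries, per the labels' protocols. The authors deposited estimated counts per gene as whole numbers; Salmon, DESeq2 and build mm10 are named without versions in the submitters' processing notes. The sources used here do not give the strand setting or transcript set. Column names gave the group only, so library numbers are names. No label names the animal behind a library, so p-values measure the spread between samples, which may be technical.

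Genes were filtered with filterByExpr (count 10, total 15) in edgeR 4.0.16 (R 4.3.3), scaled by TMM and tested in 1 quasi-likelihood fit of 15 libraries with 3 contrasts. Benjamini-Hochberg adjustment ran over 12274 genes, with a threshold of 0.05. CPM are TMM-scaled, computed here, and log values used a prior count of 2. SE were derived from the F statistic. Ratios used counts plus 0.5. The common biological coefficient of variation was 13.3%. The test was also run on simulated counts, and the outcome is not reported here.

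Alternatives were other scaling and filters, DESeq2 1.42.0, limma-voom 3.58.1, fits with fewer libraries, and a depth or immediate-early term; the fit below the depth gap and thinned counts were added after seeing the data. The 8 genes and 19 lists were chosen with earlier results of these data known. Genes named are the 8, called list members, up to 2 abundant others per list, and the 3 genes most correlated with each of the 8. Promoters are RefSeq's and gene positions GENCODE's; all 8 genes had positions and 7 had promoters.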

Additional observations from a re-analysis of the deposited data

Results flagged for a closer look

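Among 36 combinations of a gene or ratio and a group, 4 had 1 library far from the other 4, by the ratio of its gap to the range of the group (critical value 0.71). Chance marks about 1 in 20 such groups. In GDF15 library 1, Gpt stood at 368 CPM, with the next library at 298 CPM and a gap of 0.79 of the range. In GDF15 library 4, Got2 stood at 829 CPM, with the next at 755 CPM and a gap of 0.749 of the range. The ratio of Prodh to Aldh4a1 was 0.483 in GDF15 library 2, with the next at 0.374 and a gap of 0.807 of the range. The same ratio was 0.313 in Vehicle library 4, with the next at 0.236 and a gap of 0.794 of the range; this is the deeper Vehicle library, and it held the highest Prodh of its group.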

How the results depend on the processing

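Of 608 alternative values of 24 gene results (8 genes, 3 contrasts), 564 kept direction and side of the threshold, 33 lost the threshold, 6 gained it and 5 reversed, none of them a called value. The reversals were Gpt in PairFed against Vehicle at -0.037 and Got2 in GDF15 against PairFed at -0.015 with the depth term, Aldh4a1 in GDF15 against PairFed at -0.009 with the immediate-early covariate and -0.012 without GDF15 library 1, and Oat in GDF15 against PairFed at -0.036 without GDF15 library 1. With a library left out, these ranged from -0.012 to 0.049 for Aldh4a1 and from -0.036 to 0.274 for Oat. The cause was not tested.

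The number of the 8 genes called in GDF15 against Vehicle was 3, against 5 with DESeq2, 0 with the immediate-early covariate, 1 below the depth gap and 1 to 4 with a library left out. In PairFed against Vehicle it was 0, against 1 with DESeq2 and 0 to 1 with a library left out. In GDF15 against PairFed it was 1, against 0 with the covariate and 0 to 1 with a library left out. Over all genes, 356 were called in GDF15 against Vehicle, against 642 with DESeq2, 194 with only the compared groups, 10 with the covariate, 151 below the gap and 134 to 476 with a library left out. In PairFed against Vehicle 35 were called, against 339 with DESeq2, 0 with the depth term, 9 with the covariate and 0 to 135 with a library left out. In GDF15 against PairFed 96 were called, against 259 with DESeq2, 9 with the depth term, 40 with the covariate and 21 to 171 with a library left out. The share of called genes that were higher moved with upper-quartile scaling to 58.7% in GDF15 against Vehicle, against 69.7%, and to 32.5% in PairFed against Vehicle, against 51.4%.

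With a library left out, the log2 ratio of Gpt2 to Gpt ranged from -0.037 to 0.111 in GDF15 against Vehicle, reversing to -0.037 without Vehicle library 4 and -0.008 without GDF15 library 2, from 0.18 to 0.326 in PairFed against Vehicle and from -0.265 to -0.145 in GDF15 against PairFed. That of Prodh2 to Prodh ranged from -0.482 to -0.332 in PairFed against Vehicle and from -0.446 to -0.28 in GDF15 against PairFed. That of Got1 to Got2 ranged from 0.309 to 0.66, and that of Prodh to Aldh4a1 from 0.085 to 0.249, in PairFed against Vehicle. No paired analysis was possible because no source links single PairFed mice to GDF15 mice and the column numbers only name libraries. The fit below the gap holds 1 PairFed library, so it was read for GDF15 against Vehicle only. At these depths each of the 8 genes had at least 1013 counts in each library, and the spread between samples of a group was widest for Got1; whether that spread is between animals or technical was not tested.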

Other observations

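The closest genes of the other members were as follows, with the same limits as for Got1 and Prodh. Prodh2 ran most closely with Chchd2 (r = 0.94), Uqcrq (0.93) and Pcbd2 (0.92) over the 15 libraries, Aldh4a1 with Ivd (0.94), Car5a (0.94) and Mtarc1 (0.93), and Gpt with Rgs16 (0.93), Bckdha (0.90) and Tk1 (0.89). Gpt2 ran most closely with 1810055G02Rik (0.90), Brap and Sik3 (0.88 each), Got2 with Pm20d1 and Slc25a23 (0.90 each) and Ceacam1 (0.88), and Oat with Tmem59 (0.91), Pink1 and Prkag2 (0.90 each). Without the 2 libraries farthest from the median of the other gene, these r ran from 0.649 (Got2 and Ceacam1) to 0.888 (Gpt and Rgs16). Of these, 1810055G02Rik was called in PairFed against Vehicle as well as in GDF15 against Vehicle, with log2 fold changes of 0.77 and 0.85 and adjusted p of 0.039 and 0.00524 in edgeR.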
